A study of Mus musculus with 16 samples.

Results

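The comparison covers 8 of the 16 small RNA libraries of a study in C2C12, an established line of mouse myoblasts, which form myotubes once serum is lowered. All 8 came from cells kept for 3 days in differentiation medium with 2% horse serum (DM3), and the other 8 from the same lines growing at about 80% confluence in medium with 20% fetal bovine serum (GM). Of the 8 libraries, 4 came from cells lacking miR-206 and both genes for miR-1a, namely miR-1a-1 and also miR-1a-2 (triple knockout, tKO), and 4 from control cells. The members were all DM3 libraries of either genotype, chosen by their labels alone. The labels describe the parental cells of every group as "PAX7 NEG", and no other allele or agent is given for either genotype. The 4 tKO libraries are 2 clones with replicate numbers 1 and 2 each, and the 4 control libraries are 2 populations with the same numbers, so a group holds 4 libraries but 2 lines. Loss of the miRNAs and descent from a single cell therefore cannot be told apart. Nothing in the labels says whether a line's replicates were separate cultures, so p-values measure the spread between these libraries, part of which may be technical.

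MicroRNAs are short RNAs cut from hairpin precursors. They pair with messenger RNAs mainly through bases 2 to 8 of the mature strand, the seed, and lower the output of those messengers. miR-1 and miR-206 share their seed, are made almost only in muscle, rise as myoblasts leave the cell cycle, and share primary transcripts with the miR-133 miRNAs.

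The mature sequences below are those on which the comparison turns, from RefSeq (GRCm38.p6), written 5′ to 3′ with the seed in capitals. Of the 68 miRNAs chosen for naming, 42 were matched by name in that table. The first 2 show the guide strand of a deleted hairpin and of the miRNA encoded beside it.
miR-206-3p: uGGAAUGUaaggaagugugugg
miR-133b-3p: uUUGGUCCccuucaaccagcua
The next 3 are the members of the miR-344 family with the most reads. Their seeds all differ, although miR-344b-3p and miR-344-3p share their last 18 bases.
miR-344d-3p: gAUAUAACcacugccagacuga
miR-344b-3p: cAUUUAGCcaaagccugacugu
miR-344-3p: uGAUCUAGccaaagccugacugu
The last 4 are the other called miRNAs found in the table and 2 that come from Hox gene clusters. None of these 4 shares a seed with miR-206-3p.
miR-9-5p: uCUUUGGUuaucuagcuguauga
miR-129-5p: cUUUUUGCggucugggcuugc
miR-10a-5p: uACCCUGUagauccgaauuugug
miR-615-3p: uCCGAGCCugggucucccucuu

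Levels are given in CPM, the reads listed under a miRNA name scaled to the total of the library's table. Library totals ran from 112792 reads in tKO clone 1, replicate 1, to 4542927 in tKO clone 2, replicate 2, and from 247964 to 2991983 reads in the controls. The smallest library also differed in make-up. Only 47.3% of its reads matched a reference miRNA hairpin, against 68.1% in control population 1, replicate 2, and 80.1% to 89.3% in the other 6. The names miR-6240 and miR-6236 took 35.4% of it and 17.1% of that control library, against 1.60% to 5.10% of the rest. Across miRNAs its log2 CPM correlated with those of the other tKO libraries at r = 0.79 to 0.84, while the other tKO pairs lay between 0.93 and 0.98 (a description across miRNAs, which are not independent). The numbers of calls, and the fold changes where they are given, are therefore mostly shown with and without it. At 3 reads, the count that 0 observed reads still allows, the floor was 26.6 CPM in the smallest library and 0.66 CPM in the largest tKO library, for counting error only.

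**Figure D1:**
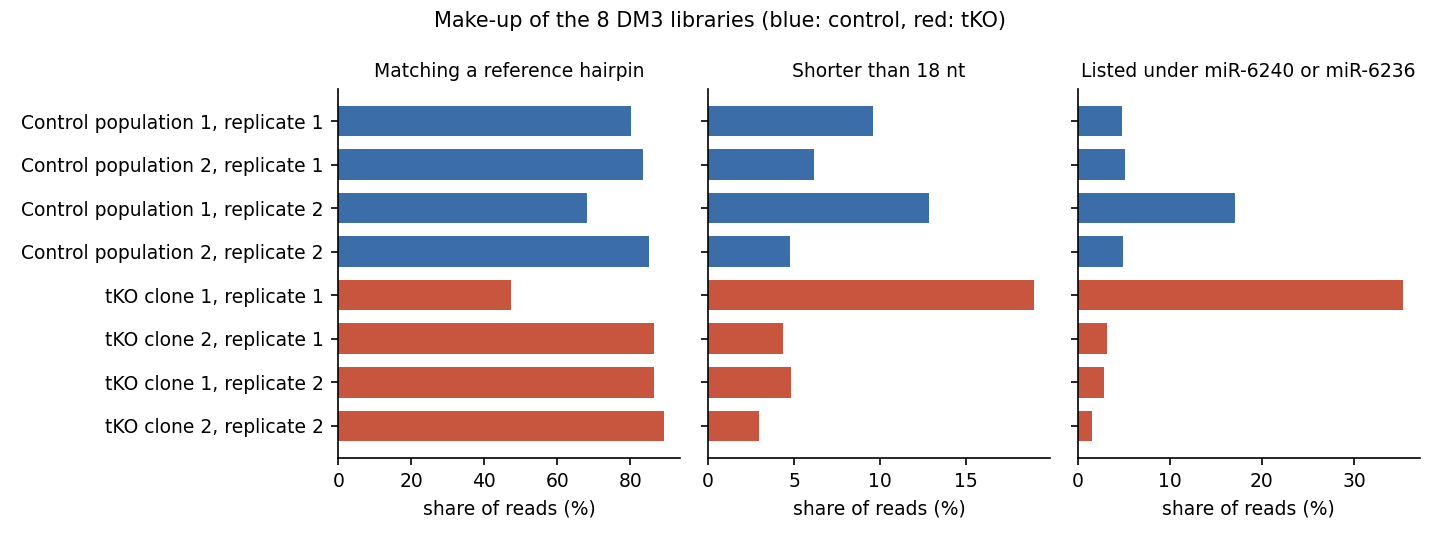
Share of reads (%, horizontal axis of each panel) that matched a reference hairpin, were shorter than 18 nt, or carried the names miR-6240 and miR-6236, with 1 bar per DM3 library (blue control, red tKO). tKO clone 1, replicate 1, has the lowest hairpin share (47.3%) and the highest shares of short reads (18.9%) and of miR-6240 and miR-6236 (35.4%), with control population 1, replicate 2, next to it in all 3 panels.

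The deleted miRNAs were near 0 in every tKO library. In the controls, listed here and below as populations 1 and 2 of replicate 1 and then of replicate 2, miR-206-3p stood at 19951, 32195, 27856 and 57442 CPM. In the tKO libraries, in the same order of clones, it stood at 70.9, 9.50, 0.96 and 5.72 CPM. The groups were far apart, and the highest tKO value was that of the smallest library, where it rested on 8 reads. The log2 fold change, tKO over control, was -11.85 ± 1.1 (SE; adjusted p = 1.46e-06, quasi-likelihood test of edgeR, adjusted by Benjamini-Hochberg over 807 miRNAs), and -12.68 ± 1.03 without the smallest library (adjusted p = 1.48e-07 over 860). Without control population 2, replicate 2, it was -11.23, and without tKO clone 1, replicate 2, -11.15, both still called. Pooled over the group, 44 tKO reads were listed under miR-206-3p against 215436 control reads, and 27 of the 44 matched the hairpin. The most read of these sequences in both genotypes was the full mature strand, with 119433 control and 12 tKO reads. The source of these tKO reads was not tested. A bulk library cannot separate fewer cells making a miRNA from less of it per cell, here or below. The hairpin lies at chr1:20679010-20679082 (+ strand, GRCm38) in an intron of the noncoding gene Gm28653.

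The passenger strand miR-206-5p fell with its guide. It stood at 8.07, 5.02, 2.16 and 21.4 CPM in the controls and at 0, 0, 0.64 and 1.1 CPM in tKO, with 70 control reads and 7 tKO reads in all. The groups did not overlap (exact two-sided permutation test on log2(CPM + 1), p = 0.0286, the smallest that 4 against 4 libraries can give; p = 0.0571 without the smallest library). It was too rare for the test across miRNAs. Of the 7 tKO reads, 0 matched the miR-206 hairpin, against 65 of the 70 control reads. Of these 65, 61 came from control population 2, replicate 2, and 0 from control population 2, replicate 1. On hairpin matches the groups therefore overlapped at 0 (exact permutation p = 0.143). The floor of the smallest library, 26.6 CPM, also exceeds every control value of miR-206-5p.

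miR-1a-3p, the mature product of both miR-1a genes, was much less abundant than miR-206-3p in control myotubes, at 145, 28.5, 165 and 97.1 CPM. The tKO libraries had 0, 1.36, 7.36 and 3.30 CPM, all below the lowest control. miR-1a-3p had a log2 fold change of -4.60 ± 0.65 (adjusted p = 0.000341, edgeR quasi-likelihood, Benjamini-Hochberg) and -4.43 ± 0.65 without the smallest library (adjusted p = 0.000308). The 39 tKO reads listed under this name did not match its hairpins: 0 of them did, against 280 of the 491 control reads. The hairpin-matched level was thus at least 174-fold lower in tKO (against a floor of 3 reads over the pooled group). Of those 280 reads, 231 came from control population 2, replicate 2, so the size of this bound rests largely on that library. The passenger strands miR-1a-1-5p and miR-1a-2-5p were at 0 in all 4 control libraries and at most 1.92 and 0.32 CPM in tKO.

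The miR-133 miRNAs, whose hairpins lie beside the deleted ones and were not themselves targeted according to the labels, were lower in tKO myotubes but called only under some conditions. miR-133a-3p stood at 2190, 1424, 1130 and 1601 CPM in the controls and at 316, 762, 65.8 and 236 CPM in tKO. miR-133b-3p stood at 738, 433, 347 and 458 CPM in the controls and at 65.0, 200, 24.7 and 83.9 CPM in tKO. For both, every tKO library lay below every control library, the highest tKO value came from clone 2, replicate 1, and the lowest from clone 1, replicate 2. The exact permutation p, unadjusted and 1 of 10 such tests, was 0.0286 for each, with and without the smallest library, which is the smallest these tests allow.

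Against the spread estimated across miRNAs, miR-133b-3p had a log2 fold change of -2.29 ± 0.59 (adjusted p = 0.0709, edgeR quasi-likelihood) with all libraries and -2.05 ± 0.58 (adjusted p = 0.0387) without the smallest. miR-133a-3p had -2.13 ± 0.58 (adjusted p = 0.098) and -1.96 ± 0.60 (adjusted p = 0.0542). Without tKO clone 2, replicate 1, both were called, miR-133a-3p at -2.97 (adjusted p = 0.0108) and miR-133b-3p at -3.01 (adjusted p = 0.0128), while the other single omissions gave -2.18 to -1.79 and -2.32 to -1.95. The direction of miR-133a-3p rests on adding the reads of its copy-numbered names: with names as listed it was 1.70 (adjusted p = 0.402). Counted only from sequences of at least 16 nt that match the hairpin, both were called with all libraries, at -2.54 (adjusted p = 0.00675) for miR-133b-3p and -2.30 (adjusted p = 0.027) for miR-133a-3p. The 2 mature strands are nearly identical, so the share of reads given to each name is uncertain. The passenger strand miR-133b-5p stood at 76.6, 50.2, 43.2 and 59.8 CPM in the controls and 35.5, 27.1, 22.1 and 25.5 CPM in tKO. Its groups did not overlap either (exact permutation p = 0.0286), with a log2 fold change of -1.06 ± 0.45 (adjusted p = 0.383, edgeR), or -1.01 without the smallest library (adjusted p = 0.201). Counted from hairpin matches, the groups of miR-133b-5p did overlap (exact permutation p = 0.0857). The Mir133b hairpin lies at chr1:20682769-20682887 (+ strand, GRCm38), in an exon of the same noncoding gene Gm28653 that holds Mir206. The other passenger strand tested, miR-133a-2-5p, had a log2 fold change of 1.02 ± 0.76 (adjusted p = 0.601, edgeR), or 0.96 without the smallest library (adjusted p = 0.433).

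**Figure D2:**
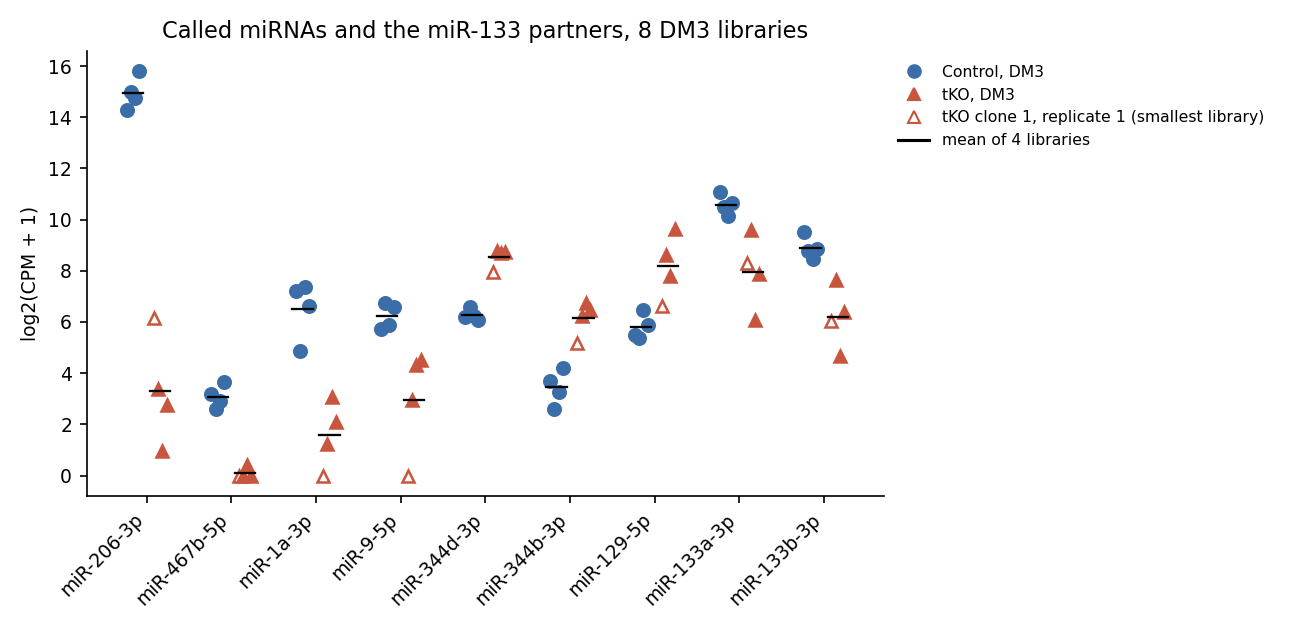
log2(CPM + 1) (vertical axis) of the 7 miRNAs called with all 8 libraries and of the miR-133 guide strands, with 1 symbol per DM3 library (blue circles control, red triangles tKO, open triangle the smallest library) and a black line at each group's mean. The groups do not overlap in any of the 9, although for miR-467b-5p the floor of the smallest library (26.6 CPM) lies above every control. miR-206-3p falls from between 19951 and 57442 CPM to at most 70.9 CPM, while miR-344d-3p, miR-344b-3p and miR-129-5p are higher in tKO.

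Beyond the deleted miRNAs, 5 others passed the test with all libraries, 3 higher and 2 lower in tKO. In all, 7 of 807 miRNAs tested passed (0.867%), with 0.372% higher and 0.496% lower, and 90 had an unadjusted p under 0.05. The 7 were also called without the smallest library. The median log2 fold change over all miRNAs was 0.09 with and 0.17 without that library, and the fold changes here are not corrected for that shift. For names with at least 80% of their reads on their own hairpin it was 0.20 with and 0.42 without that library, and for the other names -0.041 and -0.094; the fold changes of single well-matched miRNAs below are to be read against those medians. On simulated counts of this design, 71.9% of miRNAs changed by 2 on the log2 scale and 19.4% of those changed by 1 were called, so that smaller differences would mostly be missed. In that simulation 62, 57 and 64 of 737 names were changed by 1, 2 and 3, many more than were called here. Its libraries were drawn independently, without a clone or line effect, so the shares called may be too high for the real libraries.

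miR-344d-3p and miR-344b-3p, which are cut from a row of related hairpins on chromosome 7, were higher in both clones. miR-344d-3p stood at 72.6, 95.5, 73.4 and 66.5 CPM in the controls and at 248, 436, 410 and 429 CPM in tKO. The smallest library gave the lowest tKO value and still lay above every control. It rose by 2.36 ± 0.39 on the log2 scale (adjusted p = 0.00167, edgeR quasi-likelihood), or 2.64 ± 0.39 without the smallest library (adjusted p = 0.000308). miR-344b-3p rose from 12.1, 5.02, 8.63 and 17.4 CPM to 35.5, 74.6, 106 and 87.8 CPM, again without overlap. It had 3, 2, 8 and 52 reads in the controls and 4 in the smallest library, so the gap to that library rests on few reads. Its log2 fold change was 2.76 ± 0.55 (adjusted p = 0.0129, edgeR) and 3.02 ± 0.53 without the smallest library (adjusted p = 0.00175). Leaving out any of 3 control libraries (population 1 or 2 of replicate 1, or population 1 of replicate 2) left adjusted p-values of 0.0522, 0.0691 and 0.0502 for it, and leaving out control population 2, replicate 2, raised its log2 fold change to 3.49 (adjusted p = 0.00907).

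Of the 20 miR-344 names listed, 6 had enough reads for the test. Among these, 2 passed, both higher, where 0.372% of all miRNAs tested were called higher. Several of the 6 had enough reads mainly through the tKO libraries, such as miR-344g-3p with means of 5.27 CPM in the controls and 28.2 CPM in tKO, so the 6 do not stand for the family. miR-344-3p, the most abundant in controls, stood at 117, 87.9, 69.1 and 120 CPM in the controls and at 142, 140, 240 and 173 CPM in tKO, with a log2 fold change of 0.84 ± 0.38 (adjusted p = 0.395, edgeR), or 1.05 without the smallest library (adjusted p = 0.109). With and without that library, miR-344g-3p had 1.88 and 1.61, miR-344d-3-5p 1.75 and 1.99, and miR-344c-3p 1.29 and 1.22, and none of these 3 passed in either fit. The summed level of all the names ran from 176 to 236 CPM in the controls and from 559 to 857 CPM in tKO. The Mir344d-1 hairpin lies at chr7:61683124-61683192 and Mir344b at chr7:61790519-61790581 (- strand, GRCm38), the latter in an intron of the noncoding gene A230057D06Rik. Reads of these near-copies could be divided between names by the authors' counting.

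miR-129-5p, best known from brain and made from hairpins on chromosomes 2 and 6, was higher in tKO and most so in clone 2. It stood at 44.4, 40.2, 87.4 and 58.5 CPM in the controls and at 97.5, 391, 223 and 804 CPM in tKO. Clone 1 had the lower tKO value in each replicate, and its replicate 1, the smallest library, came closest to the controls without overlap. Its log2 fold change was 2.83 ± 0.66 (adjusted p = 0.0449, edgeR quasi-likelihood) and 3.26 ± 0.57 without the smallest library (adjusted p = 0.00175). The passenger strands differ between the hairpins. miR-129-2-3p, from chr2:94241364-94241453 (- strand, GRCm38), had 6 reads in the controls and 166 in tKO, with 0, 17.6, 9.28 and 27.2 CPM in the tKO libraries. The ratio of control to tKO was 0.0675 (95% exact counting interval 0.0244 to 0.15), and its log2 fold change of 3.80 ± 0.97 did not pass on all listed reads (adjusted p = 0.0709, edgeR). It passed at 4.05 without the smallest library (adjusted p = 0.0189) and, with all libraries, at 3.87 on hairpin-matched sequences (adjusted p = 0.0223). It had enough reads for the test only through the tKO libraries, where it is high, and all 6 control reads came from population 2, replicate 2, without which the fitted value was 8.21 (adjusted p = 0.0552). miR-129-1-3p, from chromosome 6, had a mean of 0.17 CPM in the controls and 5.21 CPM in tKO and was too rare for the test.

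The miR-129-5p call was lost in limma voom with line as a random effect, which gave 2.53 on the log2 scale with an adjusted p of 0.123. It was also lost with total-count scaling (adjusted p = 0.0559, edgeR) and in a fit of the DM3 libraries alone (adjusted p = 0.227). Leaving out single libraries ended it as well. It was lost when any of 6 of the 8 libraries was left out, with the largest adjusted p, 0.198, and the lowest log2 fold change, 2.05, without clone 2, replicate 2. The exceptions were both clone 1 libraries. The other 5 left-out libraries gave fold changes of 2.77 to 3.20 with adjusted p-values of 0.0502 to 0.122.

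miR-9-5p, known as a regulator of neural progenitors, was lower in tKO. It stood at 52.4, 106, 57.2 and 94.9 CPM in the controls and at 0, 6.79, 19.2 and 21.6 CPM in tKO, with every tKO library below every control. The 0 came from the smallest library, whose floor of 26.6 CPM exceeds the other tKO values. On the log2 scale it fell by 2.35 ± 0.52 (adjusted p = 0.033, edgeR quasi-likelihood) and by 2.07 ± 0.49 without the smallest library (adjusted p = 0.0263). Pooled over libraries, 392 control and 163 tKO reads gave a control-to-tKO ratio of 4.49 (95% exact counting interval 3.73 to 5.42). Without any of 5 other libraries (control population 2 of either replicate, control population 1 of replicate 2, tKO clone 2 of replicate 1, tKO clone 1 of replicate 2) the adjusted p rose to between 0.0502 and 0.122, with log2 fold changes of -2.447 to -1.998. In a fit of the DM3 libraries alone the adjusted p was 0.351. The other arm, miR-9-3p, had a log2 fold change of 0.82 ± 0.75 (adjusted p = 0.681, edgeR), or 1.08 without the smallest library (adjusted p = 0.33), and overlapped between groups.

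miR-467b-5p, from the long run of repeated hairpins in an intron of Sfmbt2 on chromosome 2, was almost absent from tKO. It stood at 8.07, 5.02, 6.48 and 11.5 CPM in the controls, and 1 read was found in all tKO libraries together, in clone 1, replicate 2. The floor of the smallest library, 26.6 CPM, exceeds every control value, so its 0 cannot show a separation. The pooled ratio of control to tKO was 82.1 with a 95% exact counting interval of 13.99 to 3316. The test gave an adjusted p of 0.000341 with all libraries and 0.000346 without the smallest (edgeR quasi-likelihood). The Mir467b hairpin lies at chr2:10481248-10481320 (+ strand, GRCm38), and near-copies lie beside it in the same intron, so the hairpin its reads came from is uncertain. The families miR-297, miR-466, miR-467 and miR-669 have 94 names here, grouped by name and not by position, so some may lie outside this intron. Summed over these 94 names, levels overlapped, at 151 to 216 CPM in the controls and 77.7 to 284 CPM in tKO, with the smallest library the highest of all 8. Only 6 names were tested, and 3 of them (miR-669c-5p, miR-467c-5p, miR-467b-5p), each at a mean of at most 0.22 CPM in tKO, had enough reads only through the controls, so the tested names do not stand for these families. miR-467b-5p was the 1 of 6 that passed, where 0.496% of all miRNAs were called lower. Without the smallest library 3 of 7 passed, all lower, where 6.16% of all miRNAs were called and 4.65% were lower. The others were miR-467c-5p, with 22 control and 3 tKO reads (ratio 13.7, interval 4.11 to 71.4), and miR-467a-5p, with 28 and 4 reads (ratio 13.1, interval 4.57 to 51.3). Among the same families miR-467f-5p had a log2 fold change of 0.04 and miR-466h-5p of 0.12 (0.21 and -0.55 without the smallest library), so the difference did not run through all names tested.

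Leaving out the smallest library raised the number of called miRNAs from 7 to 53 of 860 (6.16%), with 1.51% higher and 4.65% lower. The 53 calls, the first 7 included, are given here by the share of reads on the name's own hairpin. Among the 294 tested miRNAs with at least 80% of their reads on their own hairpin, 16 were called (5.44%), 10 higher (3.4%) and 6 lower (2.04%). Among the other 566 names, 37 were called (6.54%), 34 of them lower (6.01%). Both shares are close to the 6.16% over all names. For 306 of the 566 no mature strand could be placed on a hairpin, so that no read could match, and these held 27 of the 37 calls (8.82% of the 306), 26 of them lower. The 260 that could match held 10 calls (3.85%), 8 of them lower. By length, 33 of all 53 called names had a median read length under 18 nt, out of 358 such names (9.22%). For 29 of those 34, the left-out library lay above the lowest control, and for 18 above every control. Summed over the 34 names, levels were 8582 to 38329 CPM in the controls, 58736 CPM in the left-out library and 3150 to 6670 CPM in the other tKO libraries.

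The naming rule given below covers 18 called names with under 20% hairpin reads. The 3 most abundant of the 18, miR-6538, miR-1199-3p and miR-1951, all among these 34 lower names, show what their reads are. The most read sequence under each name in the DM3 libraries is printed as listed, followed by the RefSeq mature strand.
miR-6538 reads: ggctccggggcggcg
miR-6538: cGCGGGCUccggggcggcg
miR-1199-3p reads: cgcgtgcgggcgg
miR-1199-3p: uGCGGCCGgugcucagucggc
miR-1951 reads: ccacctctcttccc
miR-1951: gUAGUGGAgacugguguggcua
These reads are 13 to 15 nt long, too short for the hairpin match, no mature strand of miR-1199-3p could be placed on a hairpin, and the latter pair were listed by the authors' tool with a mismatch. miR-6538 stood at 9413, 3821, 14772 and 3331 CPM in the controls and at 23707, 1911, 2686 and 1268 CPM in tKO, so the smallest library had the highest value of all 8 and the other tKO libraries the lowest. Its log2 fold change was -0.21 (adjusted p = 0.921, edgeR) with all libraries and -1.82 (adjusted p = 0.025) without the smallest. miR-1199-3p changed in the same way from -0.21 to -1.90, and miR-1951 from -0.37 to -2.05. When control population 1, replicate 2, which had the next lowest hairpin share, was left out as well (an alternative chosen after seeing the data), 9 of 829 were called (1.09%), the 7 first named among them, and 45 of the 53 were no longer called.

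**Figure D3:**
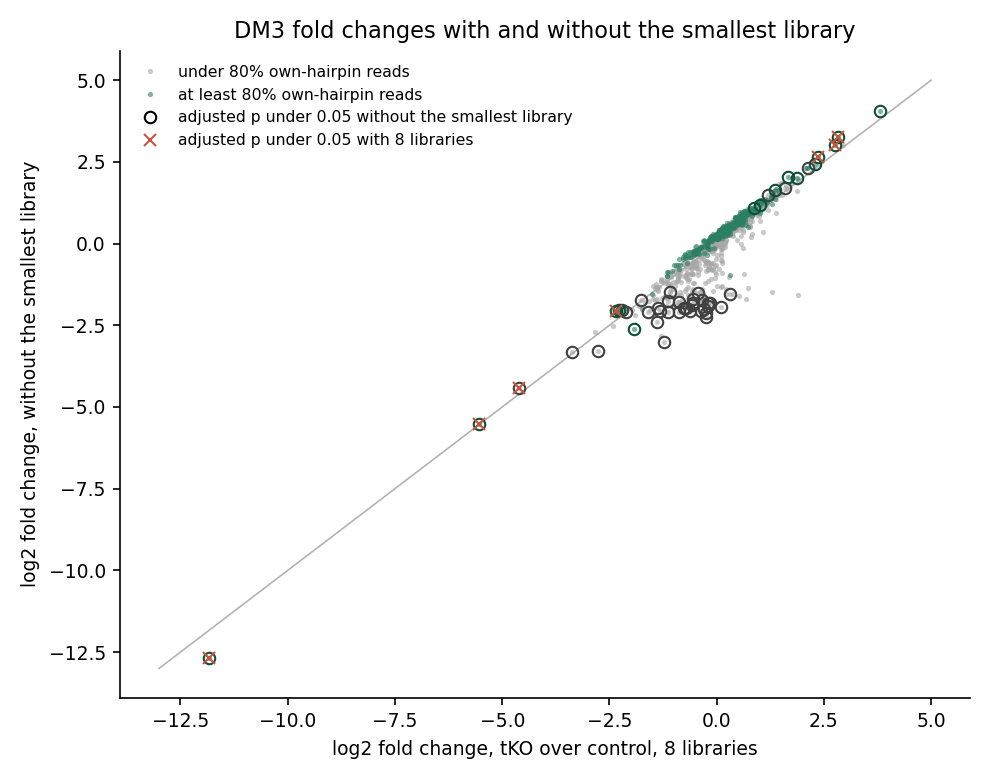
log2 fold change, tKO over control, of each miRNA tested in both fits, with all 8 libraries (horizontal axis) and without the smallest library (vertical axis); green points have at least 80% of their reads on their own hairpin, grey points fewer or no hairpin to match, circles mark adjusted p under 0.05 without the smallest library and crosses with all 8. The 7 crosses lie near the line of equality, and most circled grey points lie well below it, like miR-6538 at -0.21 and -1.82.

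Among the well-matched miRNAs called without the smallest library, the Hox cluster miRNA miR-10a rose on both arms. miR-10a-5p, whose hairpin lies at chr11:96317165-96317274 (+ strand, GRCm38), stood at 714, 1472, 1672 and 2959 CPM in the controls and 2500, 4157, 7442 and 7929 CPM in tKO. Control population 2, replicate 2, lay above the smallest tKO library, so the groups overlapped with all 8 libraries and separated without it. Its log2 fold change was 1.67 ± 0.48 with it (adjusted p = 0.133, edgeR) and 2.02 ± 0.46 without it (adjusted p = 0.0207). It was also called, at 2.32 (adjusted p = 0.0372), when control population 2, replicate 2, was left out instead. miR-10a-3p, chosen after its values were seen, stood at 0, 22.6, 9.72 and 24.1 CPM in the controls and at 53.2, 47.5, 73.6 and 61.0 CPM in tKO, without overlap, and had 1.87 ± 0.55 with the smallest library and 2.01 ± 0.56 without it (adjusted p = 0.139 and 0.0378).

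miR-155-5p, made from the noncoding gene Mir155hg and known from immune cells and from proliferating myoblasts, was also higher. It stood at 149, 246, 232 and 479 CPM in the controls and at 496, 635, 680 and 1082 CPM in tKO, with a narrow gap between the highest control and the lowest tKO library. The log2 fold change was 1.37 ± 0.44 (adjusted p = 0.212, edgeR) and 1.65 ± 0.45 without the smallest library (adjusted p = 0.0349). Without control population 2, replicate 2, it was 2.03 (adjusted p = 0.0387). miR-224-5p, from an intron of Gabre on the X chromosome, reached 703 to 1247 CPM in tKO against 359 to 532 CPM in the controls, with 1.00 ± 0.30 (adjusted p = 0.156) and 1.18 ± 0.33 (adjusted p = 0.0387). miR-28a-3p, from an intron of Lpp, had 646 to 1111 CPM against 391 to 536 CPM, with 0.87 ± 0.28 (adjusted p = 0.224) and 1.08 ± 0.31 (adjusted p = 0.0387). The epithelial miRNA miR-200b-3p was called without the smallest library, at 2.45 ± 0.64 (adjusted p = 0.0335) against 2.28 ± 0.67 with it (adjusted p = 0.136), and stood at no more than 11.4 CPM in any DM3 library. With 7 reads in all DM3 controls, it had enough reads for the test mainly through the tKO libraries. miR-130b-3p, just short of the 80% mark for hairpin reads, stood at 2.16 to 10.05 CPM in the controls and 13.9 to 19 CPM in tKO, with 1.59 ± 0.42 with the smallest library (adjusted p = 0.0784) and 1.70 ± 0.44 without it (adjusted p = 0.0335).

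Counting only hairpin-matched sequences gave a count that the smallest library moved little. Here 20 of 399 miRNAs were called with all libraries (5.01%), 8 higher (2.01%) and 12 lower (3.01%), and 19 of 418 without the smallest (4.55%), with 16 in both. All 7 first calls were among the 20. The lower ones, chosen here after their values were seen unless they were named above, included miR-615-3p, from an intron of Hoxc5. It stood at 37606, 31842, 31541 and 19814 CPM in the controls and 7066, 17267, 14218 and 17364 CPM in tKO, with every tKO library below every control. Its log2 fold change was -1.01 ± 0.32 in the fit on all listed reads (adjusted p = 0.214, edgeR), or -0.66 without the smallest library (adjusted p = 0.166). With hairpin matches it was -1.27 (adjusted p = 0.0077), and -1.07 without the smallest library (adjusted p = 0.0263). Further lower calls in the hairpin counts were miR-181c-5p at -2.15, miR-744-5p at -1.21, let-7d-3p at -1.16 and miR-674-3p at -1.03 (adjusted p = 0.0315, 0.0318, 0.0473 and 0.0428, edgeR). Of these 4, only miR-181c-5p was also called in the hairpin counts without the smallest library, at -2.07, with miR-744-5p at -1.11, let-7d-3p at -1.10 and miR-674-3p at -0.88.

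Apart from the tests, 41 of 807 miRNAs had groups that did not overlap in CPM (5.08%), 2.85% higher and 2.23% lower, and without the smallest library 130 of 860 (15.1%). Of these 41, 19 reached a group mean of 100 CPM or more with 80% or more hairpin reads, 12 higher and 7 lower. miR-206-3p, miR-133a-3p, miR-133b-3p and miR-615-3p were among the lower ones, with miR-674-3p at -0.80 ± 0.32 on the log2 scale (-0.49 without the smallest library) and 2 miRNAs of an imprinted cluster near Gnas. Of these, miR-298-5p stood at 1049, 786, 546 and 583 CPM in the controls and at 426, 62.4, 434 and 30.8 CPM in tKO, and miR-296-3p at 262, 128, 134 and 104 CPM and 17.7, 12.2, 86.1 and 4.62 CPM. miR-298-5p was low in clone 2 in both replicates and less so in clone 1. With log2 fold changes of -1.74 ± 0.76 and -2.24 ± 0.84, neither passed (adjusted p = 0.395 and 0.316, edgeR), nor did they without the smallest library, at -2.01 and -2.06 (adjusted p = 0.142 and 0.166). Without tKO clone 1, replicate 2, miR-296-3p was called, at -3.98 (adjusted p = 0.0406). The hairpins lie at chr2:174267504-174267585 and chr2:174267047-174267125 (- strand, GRCm38). The remaining higher ones named were miR-421-3p at 1.04 ± 0.42, miR-872-3p 0.91 ± 0.32, miR-344-3p as above, miR-28a-5p 0.83 ± 0.36 and miR-103-3p 0.73 ± 0.34 on the log2 scale. None of them passed (adjusted p from 0.273 to 0.423, edgeR). Without the smallest library miR-421-3p had 1.24, miR-872-3p 1.06, miR-28a-5p 0.99 and miR-103-3p 0.95, and again none passed.

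**Figure D4:**
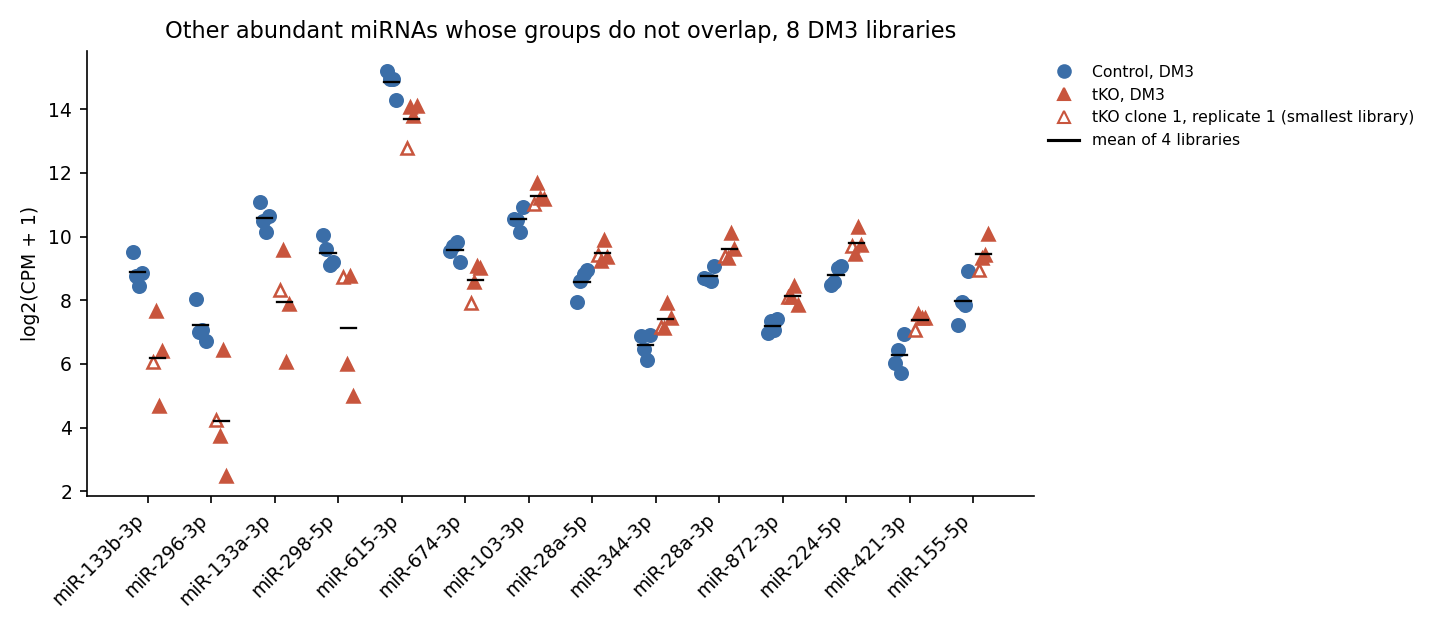
log2(CPM + 1) (vertical axis) of the abundant, well-matched miRNAs whose DM3 groups do not overlap and that are not among the 7 calls, with 1 symbol per library (blue circles control, red triangles tKO, open triangle the smallest library) and a black line at each group's mean. miR-298-5p and miR-296-3p show the widest spread within tKO, with miR-298-5p between 30.8 and 434 CPM.

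The other muscle-hosted miRNAs did not separate. miR-486b-5p, encoded in Ank1, had means of 263 ± 69.5 CPM in the controls and 164 ± 71.6 CPM in tKO (SD, n = 4 each; log2 fold change -0.62 ± 0.37, adjusted p = 0.492, edgeR), and miR-486a-5p had 82.6 ± 10.6 and 69.5 ± 24.2 CPM (-0.27 ± 0.34). Without the smallest library these fold changes were -0.40 and -0.24. miR-499-5p, encoded in Myh7b, was near the detection limit, with 4.36 ± 3.33 and 8.01 ± 6.80 CPM and a log2 fold change of 1.30 ± 0.73 (adjusted p = 0.492), or 1.48 without the smallest library (adjusted p = 0.203).

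Larger lists showed few calls, as did all miRNAs tested, of which 0.867% were called with all libraries and 6.16% without the smallest. Of 36 tested miRNAs that were listed as rising during myoblast differentiation, 0 passed with all libraries (median log2 fold change 0.17 against 0.09 over all names and 0.20 over the well-matched ones), although 90 of the 807 had an unadjusted p under 0.05, and 1, miR-133b-3p, passed without the smallest library (median 0.37 against 0.17 and 0.42). Of 15 miRNAs of the proliferation-linked clusters, 0 passed (median 0.26) with all libraries and 1, miR-155-5p, without the smallest (median 0.49). Of the 11 let-7 guide strands, 0 passed in either fit, with medians of 0.48 and 0.82. The Dlk1-Dio3 cluster had 10 tested members, of which 0 passed (median -0.27), and 0 of 11 without the smallest library (median -0.26). The members were chosen with earlier results of these data known, and these counts carry no test of their own.

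The 10 most abundant names, none of them called in either fit, were let-7c-5p, let-7i-5p, miR-143-3p, miR-21a-5p, miR-24-3p, miR-26a-5p, miR-27b-3p, miR-30d-5p, miR-6240-3p and miR-99b-5p. miR-21a-5p ranged from 46757 to 107494 CPM in the controls and from 43886 to 154715 CPM in tKO. miR-6240-3p, a name with no mature strand that could be placed on a hairpin, took 31811, 39354, 138097 and 39896 CPM in the controls and 271127, 24973, 21400 and 13087 CPM in tKO. Its log2 fold change was 0.22 ± 0.73 with the smallest library and -1.53 ± 0.51 without it (adjusted p = 0.926 and 0.0731, edgeR).

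Markers of other cell types were low or overlapped between genotypes, except for miR-9-5p and miR-129-5p of the neural list. Summed over the 7 epithelial miRNAs, levels were low but did not overlap, at 5.02 to 15.1 CPM in the controls and 17.6 to 46.7 CPM in tKO. In the smallest library the sum was 17.7 CPM, under its floor of 26.6 CPM, which exceeds every control sum, so it cannot show a separation. miR-203-3p went the other way, with means of 2.49 CPM in the controls and 1.01 CPM in tKO, while the other means were higher in tKO. Of all miRNAs tested, 5.08% had groups that did not overlap. Over the 5 blood miRNAs in the files they summed to at most 12.6 and 7.36 CPM, with miR-451a at 0 in all 8. Endothelial miR-126a-3p had means of 8.90 and 11.9 CPM, and the liver and endocrine pair summed to at most 10.2 CPM. Summed over the neural list, levels were 1250 to 2550 CPM in the controls and 1206 to 3378 CPM in tKO, with miR-128-3p the most abundant (means of 1871 and 2010 CPM). Of the others, miR-9-5p was lower and miR-129-5p higher as above, miR-219a-5p had means of 62.9 and 53.2 CPM, miR-124-2-3p stood at no more than 17.7 CPM, and miR-124-1-3p, miR-124-3-3p and miR-137-3p at no more than 3.20 CPM. The fibroblast and smooth muscle pair miR-143 and miR-145a summed to 25330 to 44760 CPM in the controls and 18645 to 61043 CPM in tKO. The part of other cell types in the results was not tested.

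Reads carrying 3′ bases that the authors' tool did not find in the precursor did not differ between genotypes beyond their spread. Such tails made up 32.5 ± 3.28% of reads in the controls and 33.0 ± 7.99% in tKO (SD, n = 4 each; exact two-sided permutation p = 0.943). Without the smallest library, in which they made up 44.9%, the tKO mean was 29.0 ± 0.60% (n = 3, exact permutation p = 0.143). Over the 12 read shares compared (tails by number and base, length classes, mismatches, hairpin match, miR-6240 and miR-6236), every adjusted p was 1 with all libraries and at least 0.24 without the smallest. Among hairpin-matched sequences without mismatch, an alternative added after seeing the data, tails were 24.9 ± 1.31% and 25.2 ± 0.88% of reads and the groups overlapped. Within these, C tails were 5.64 ± 0.42% and 6.54 ± 0.36% (exact permutation p = 0.0286, unadjusted, 1 of 7 shares looked at; p = 0.0571 without the smallest library).

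The same genotypes were compared in growth medium in 8 other libraries of the same clones and populations, which are thus not independent lines. There 9 of 807 miRNAs passed (1.12%), and 6 of the 7 DM3 calls were among them. miR-344d-3p had a log2 fold change of 2.70 ± 0.39 in GM against 2.36 ± 0.39 in DM3, miR-344b-3p 2.36 ± 0.52 against 2.76 ± 0.55, miR-129-5p 2.99 ± 0.66 against 2.83 ± 0.66, and miR-9-5p -3.87 ± 0.54 against -2.35 ± 0.52. miR-1a-3p was the exception, at -2.08 ± 0.68 in GM (adjusted p = 0.225, edgeR), where the controls held only 3.67 to 8.96 CPM. miR-206-3p stood at 837 to 1466 CPM in the GM controls and fell by 7.52 ± 0.91 on the log2 scale in tKO, and the miR-133 guide strands were at no more than 14.9 CPM in any GM library.

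The difference between the DM3 and GM genotype effects was tested directly. Of 807 miRNAs, 0 passed (0% called; 37 had an unadjusted p under 0.05, and DESeq2 also called 0), and without the smallest library 1 passed, miR-206-3p. With all libraries, its interaction term was -4.32 on the log2 scale (unadjusted p = 0.00131, adjusted p = 0.694, edgeR), that of miR-1a-3p -2.52 ± 0.95, that of miR-9-5p 1.52 ± 0.70 and that of miR-130b-3p 1.71 ± 0.53 (adjusted p = 0.937, 0.937 and 0.902). Both miR-206-3p and miR-1a-3p are deleted, so their terms mainly restate how control levels differ between the media. In GM and DM3, miR-206-3p had means of 1156 and 34361 CPM in the controls and 6.79 and 21.8 CPM in tKO. The means of miR-1a-3p were 5.27 and 109 CPM in the controls and 1.39 and 3.00 CPM in tKO. Of the 51 names called in DM3 without the smallest library that were also tested in GM, 22 had the same sign there.

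**Figure D5:**
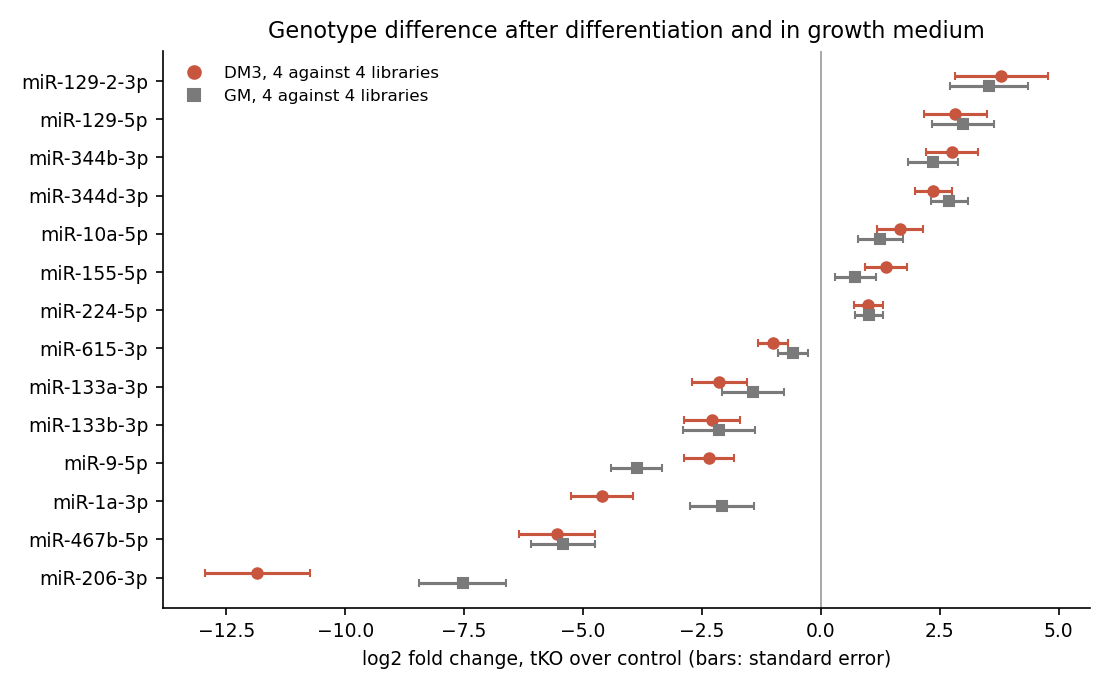
log2 fold change, tKO over control (horizontal axis, bars 1 standard error), in DM3 (red circles, 8 libraries) and in GM (grey squares, 8 libraries) for the 7 DM3 calls and 7 further miRNAs named in the text. All 14 have the same sign in both media, but the 7 further ones were picked by hand and do not stand for the other names. By contrast, 22 of the 51 names called in DM3 without the smallest library and tested in GM kept their sign. The pairs lie farthest apart for the deleted miR-206-3p (-11.85 and -7.52) and miR-1a-3p (-4.60 and -2.08), whose control levels differ between the media.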

How the data were processed

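Small RNA of 15 to 50 nt was sequenced per the labels' protocols. The deposited tables, named for the program unitas, list sequences per miRNA with estimated counts (expected counts, fractional where a sequence was shared). cutadapt 1.15, STAR 2.5.4 and mm10 appear in the submitters' processing notes, and the version of unitas and its annotation are not given in the sources used here. Counts were summed per miRNA name after removing text in parentheses and trailing spaces. Of 2510 names, 236 with no listed mature sequence joined the name that matches once copy number or arm is dropped. CPM used the library total, and counts were rounded for the tests. Without molecular identifiers, reads are not independent molecules, and the intervals given reflect counting error alone.

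edgeR 4.0.16 (R 4.3.3) fitted all 16 libraries by group (filterByExpr, TMM, robust quasi-likelihood) with Benjamini-Hochberg adjustment and a threshold of 0.05, and errors beside fold changes are standard errors. The fit was tested on simulated data. limma 3.58.1 and DESeq2 1.42.0 served as alternatives. Permutation tests were exact, over 10 deleted or neighbouring strands and 12 read shares. A hairpin match is an exact match of at least 16 nt to a GENCODE M21 hairpin, starting within 3 bases of the mature start. It is possible for 917 of 2274 names, those whose mature strand, listed by the authors without a mismatch, lies in a hairpin, and counts as 0 for the rest.

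Named miRNAs are all called ones (of those called without the smallest library, the 30 with the smallest p), up to 10 per direction with groups that do not overlap, a mean of at least 100 CPM and 80% hairpin reads, the deleted, neighbouring and muscle-hosted ones, and the 10 most abundant. Of the called names, 18 with under 20% hairpin reads are given as a group with their 3 most abundant. The members and lists were chosen with earlier results of these data known.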

Additional observations from a re-analysis of the deposited data

Results flagged for a closer look

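Within groups of 4 libraries, 12 of 70 sets of values held a library set apart from the other 3 by most of the range. Chance alone does this in about 1 in 20 sets of independent, normally distributed values. Many of the sets here are shares of the same reads, so the 12 of 70 cannot be set against that rate. For miR-28a-3p, control population 2, replicate 2, stood apart at 9.07 on the log2(CPM + 1) scale. For miR-344d-3p it was tKO clone 1, replicate 1, at 7.96. For miR-467b-5p it was tKO clone 1, replicate 2, at 0.40, which is the single read against 0 in the other 3, a set that is always flagged. The other 9 concern the make-up of the reads. tKO clone 1, replicate 1, stood apart in tailed reads (44.9%), tails of 2 bases (23.7%), G tails (4.53%), reads under 18 nt (18.9%), reads of 21 to 23 nt (47.9%), reads with a mismatch (32.3%), hairpin matches (47.3%) and the share of miR-6240 and miR-6236 (35.4%). Control population 1, replicate 2, stood apart in the share of miR-6240 and miR-6236 (17.1%). What set these libraries apart was not tested.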

How the results depend on the processing

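The count of 7 calls was 6 to 10 under other scalings, a stricter filter, names as listed, limma voom with line as random effect, and the replicate block (7, all the same miRNAs). It was 14 without a filter, 19 with DESeq2, 74 with the replicates of a line summed, 4 on the DM3 libraries alone, 13 on reads without mismatch, 20 with hairpin match, 1 on replicate 1 alone and 70 on replicate 2 alone, and 5 to 53 with 1 library left out. Summed replicates are weighted by depth, so tKO clone 1 in DM3 then held 112792 reads of replicate 1 and 3125381 of replicate 2. Alternatives chosen after seeing the data, all without the smallest library, gave 64 with the replicate block, 19 with hairpin match and 50 with limma voom. miR-206-3p and miR-467b-5p passed under every alternative that could test them, and miR-1a-3p and miR-344d-3p under all but replicate 1 alone. The interaction count went from 0 to 1 without the smallest library. The cause of these changes was not tested.

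Same-numbered libraries of the 2 genotypes deviated together no more than weakly (mean r = 0.10, from -0.46 to 0.63 over 8 pairs), so the numbers are not taken as pairs. Permuting within the replicate block gave the same differences, miR-206-3p at -11.64, miR-1a-3p at -4.92, miR-133a-3p at -2.63 and miR-133b-3p at -2.70, with p = 0.0556, the smallest exact p that design allows. With 1 library left out, those of miR-133a-3p ran from -3.17 to -2.0 and of miR-133b-3p from -3.18 to -2.19, with an exact permutation p of 0.0571 where a control library was missing. The difference in tailed reads ran from -3.52 to 2.01 percentage points.

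Signs that turned belonged to fold changes not called with all 8 libraries, and the cause was not tested. miR-6240-3p was at -0.062 without a filter, -1.93 with replicates summed and -2.49 on replicate 2, where it passed (adjusted p = 0.0277 and 0.027, edgeR), -0.76 with limma voom, -1.29 with limma voom and -1.40 with the replicate block without the smallest library, -0.76 without both libraries of low hairpin share, and -1.53 to 1.00 with 1 library left out. miR-6538, miR-1199-3p and miR-1951 were lower calls without the smallest library. miR-6538 was at 0.11 on the DM3 libraries, 0.022 on reads without mismatch, 1.26 on replicate 1, 0.039 with the stricter filter and -1.82 to 0.44 with 1 library left out. miR-1199-3p was at 0.12 on the DM3 libraries, 1.31 on replicate 1, 0.039 with the stricter filter and -1.90 to 0.44 with 1 library left out, and miR-1951 at 0.77 on replicate 1 and -2.05 to 0.085. miR-486a-5p was at 0.33 on replicate 1, miR-133a-2-5p at -0.52 on replicate 2, and miR-133a-3p at 1.70 with names as listed, where reads listed under its copy-numbered names are not added to it. Few reads limit miR-467b-5p, miR-467c-5p, miR-129-2-3p and miR-206-5p, among others.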
